A study of Mus musculus with 24 samples.

Results

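The 46 genes described here encode nucleolar and ribosome assembly proteins, and they are the members of a list of symbols. The list uses no measured value as a criterion, but it was proposed with earlier results of these data known. All 46 were found among the 28328 genes with a transcript in the table. All of them reached 1 TPM in 3 or more of the 24 libraries, the filter on low values, as did 12581 genes in all. By role the list held 4 subunits of RNA polymerase I, 3 proteins of the box C/D and 4 of the box H/ACA small nucleolar ribonucleoproteins (snoRNPs), 15 proteins of small subunit assembly, 14 of large subunit assembly, and 6 nucleolar chaperones and other nucleolar proteins. TPM, the deposited unit, expresses how abundant a transcript is relative to the whole library after correction for its length, and the transcripts of a gene were summed.

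Poly(A) RNA was sequenced from LLC1 cells, a mouse Lewis lung carcinoma line grown in culture. Combination cells received cisplatin, pemetrexed and trametinib together, at doses that the sources used here do not state apart from those of the single treatments. Trametinib cells received trametinib, an inhibitor of the kinase MEK, at 10 nM. Chemotherapy cells received 2.5 µM cisplatin, which crosslinks DNA, and 2.5 µM pemetrexed, an antifolate. Untreated cells received only 0.1% DMSO. Each treatment was sampled at 24 h and at 6 h, with 3 libraries in each of the 8 groups, and all libraries came from the same line. Whether the 3 libraries of a group were grown as separate cultures is not stated in the labels, and the spread that p-values rest on may therefore be technical. The treatments of a time point share the same 3 untreated libraries.

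A cell builds a ribosome in the nucleolus, where RNA polymerase I transcribes the precursor of ribosomal RNA (rRNA), box C/D snoRNPs guide its 2′-O-methylation, box H/ACA snoRNPs guide its pseudouridylation, and large assembly complexes fold and cut the precursors of the small and the large subunit. The work takes a large part of the energy of a growing cell, and in tumour cells both growth signals through MEK and ERK and the transcription factor Myc are known to promote it. Cisplatin is known to disturb rRNA synthesis.

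The depth behind a value is unknown, because the column of every library sums to the same total. Log2(TPM + 1) values of libraries within a group correlated across genes at 0.982 to 0.994. Of the mesenchymal markers, Vim ranged from 3296 to 4478 TPM over the 24 libraries, Fn1 from 161 to 684 TPM, Cdh2 from 6.4 to 18.4 TPM and Col1a1 from 0.0147 to 6.89 TPM. Of the epithelial markers, Krt8 ranged from 69.9 to 209 TPM, Krt18 from 121 to 361 TPM and Krt19 from 0.393 to 7.65 TPM, while Cdh1 was at most 0.154 TPM and Epcam at most 0.0164 TPM. The 4 lung epithelial markers were each at most 0.277 TPM, the endothelial marker Pecam1 ranged from 2.06 to 12.7 TPM with its highest group mean, 9.64 TPM, in chemotherapy cells at 24 h, and Cdh5 was at most 0.0995 TPM. The red cell marker Hba-a1 was at most 2.3 TPM and Hbb-bs was listed at 0. Vim, Fn1, Cdh2 and Col1a1 had their highest group means in trametinib cells at 24 h (4235, 659, 17.9 and 5.7 TPM). Combination cells at 24 h came next (4054, 599.6, 17.4 and 5.59 TPM), and the part of these differences in the results was not tested. The leukocyte markers Ptprc, Cd3e and Adgre1 were each at most 0.0121 TPM in every library. Dusp6, a phosphatase gene induced by ERK, averaged 25.7 ± 1.98 TPM in combination, 24.7 ± 7.06 TPM in trametinib, 83.6 ± 8.1 TPM in chemotherapy and 73.5 ± 3.7 TPM in untreated cells at 6 h (SD, n = 3 each). Cdkn1a, a target of p53, averaged 257 ± 16.8 TPM in combination, 68.2 ± 6.14 TPM in trametinib, 372 ± 35.2 TPM in chemotherapy and 173 ± 20 TPM in untreated cells at 24 h (SD, n = 3 each). Both genes were chosen with earlier results of these data known.

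The promoters of 41 of the 46 genes were matched by symbol in the RefSeq table of GRCm38.p6, as the 250 bases before the annotated start. Rrp12, Bop1, Rrs1, Fbl and Npm1 had no window, and bases after the start were not searched. A gene with several windows, such as Wdr12, counted if any of them held the motif. The E-box CACGTG is the site that Myc and its relatives are known to bind, a palindrome that reads alike on both strands. It was present in 2 of the 41 genes (4.88%), against 9.99% of the 9150 tested genes with a window. Of all 27025 genes in the table, 6.86% had it. The letters CCGGAAG, searched on both strands and known as an ETS family site, were present in 10 of the 41 genes (24.4%). The shares were 16.7% of the tested genes with a window and 7.83% of all genes in the table. The motifs share no overlap in the windows shown. A match is only a description of letters in these windows. The windows of 5 genes that the results return to are given 5′ to 3′ on the gene's own strand, with both motifs in capitals on whichever strand they lie: Nop2 and Imp4 are the 2 genes with an E-box, Imp3 is the partner of Imp4 in one complex, and Polr1b and Polr1c are the RNA polymerase I subunits with the largest and with no called change after trametinib.
Nop2, chr6:125131633-125131882, plus strand: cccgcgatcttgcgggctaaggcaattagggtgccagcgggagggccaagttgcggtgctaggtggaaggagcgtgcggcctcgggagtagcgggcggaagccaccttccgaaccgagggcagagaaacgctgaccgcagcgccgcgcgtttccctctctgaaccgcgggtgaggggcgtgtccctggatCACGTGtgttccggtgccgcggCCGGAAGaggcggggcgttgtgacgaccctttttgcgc
Imp4, chr1:34439579-34439828, plus strand: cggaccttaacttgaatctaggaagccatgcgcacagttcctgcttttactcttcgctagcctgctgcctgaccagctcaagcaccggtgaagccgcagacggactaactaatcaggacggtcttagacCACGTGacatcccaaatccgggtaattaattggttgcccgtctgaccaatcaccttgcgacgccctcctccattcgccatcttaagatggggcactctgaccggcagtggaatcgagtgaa
Imp3, chr9:56937250-56937499, plus strand: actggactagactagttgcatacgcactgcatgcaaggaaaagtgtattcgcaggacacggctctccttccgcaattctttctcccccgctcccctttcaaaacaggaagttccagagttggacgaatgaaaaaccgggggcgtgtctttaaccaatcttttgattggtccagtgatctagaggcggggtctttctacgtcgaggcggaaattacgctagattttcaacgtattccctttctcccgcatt
Polr1b, chr2:129100746-129100995, plus strand: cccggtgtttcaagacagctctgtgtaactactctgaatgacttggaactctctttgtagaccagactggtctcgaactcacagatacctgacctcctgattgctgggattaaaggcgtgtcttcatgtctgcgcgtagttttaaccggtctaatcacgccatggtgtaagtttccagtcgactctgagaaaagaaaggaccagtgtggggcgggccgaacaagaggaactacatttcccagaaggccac
Polr1c, chr17:46248046-46248295, minus strand: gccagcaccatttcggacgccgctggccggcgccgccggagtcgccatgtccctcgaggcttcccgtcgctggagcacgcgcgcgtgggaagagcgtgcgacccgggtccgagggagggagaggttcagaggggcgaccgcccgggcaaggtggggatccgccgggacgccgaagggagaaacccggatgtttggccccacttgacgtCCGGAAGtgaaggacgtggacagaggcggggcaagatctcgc

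Trametinib lowered nearly the whole list within 6 h. Of the 46 genes, 45 passed the test as lower and 0 as higher in trametinib against untreated cells, with a median log2 difference of -0.83, while among all 12581 genes tested 35.9% were higher and 18.9% were lower, with a median of 0.105. In combination against untreated cells the counts were again 45 lower and 0 higher, with a median of -0.84, against 38.6% higher and 19.8% lower among all genes and a median of 0.109. A gene was called where limma gave an adjusted p (Benjamini-Hochberg over all genes tested) under 0.05, and differences are on the log2(TPM + 1) scale. For each of the 45 genes every treated library lay below every untreated one in both comparisons, as it did for 21.9% of all genes tested with trametinib and 22.9% with the combination. When the libraries were rescaled by the median ratio across genes, the shares of all genes became 28.7% higher and 26.2% lower for trametinib and 30.5% higher and 29% lower for the combination, the median of all genes in the combination comparison shifted by -0.113, the 45 genes kept their calls and their medians became -0.93 and -0.97.

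**Figure D1:**
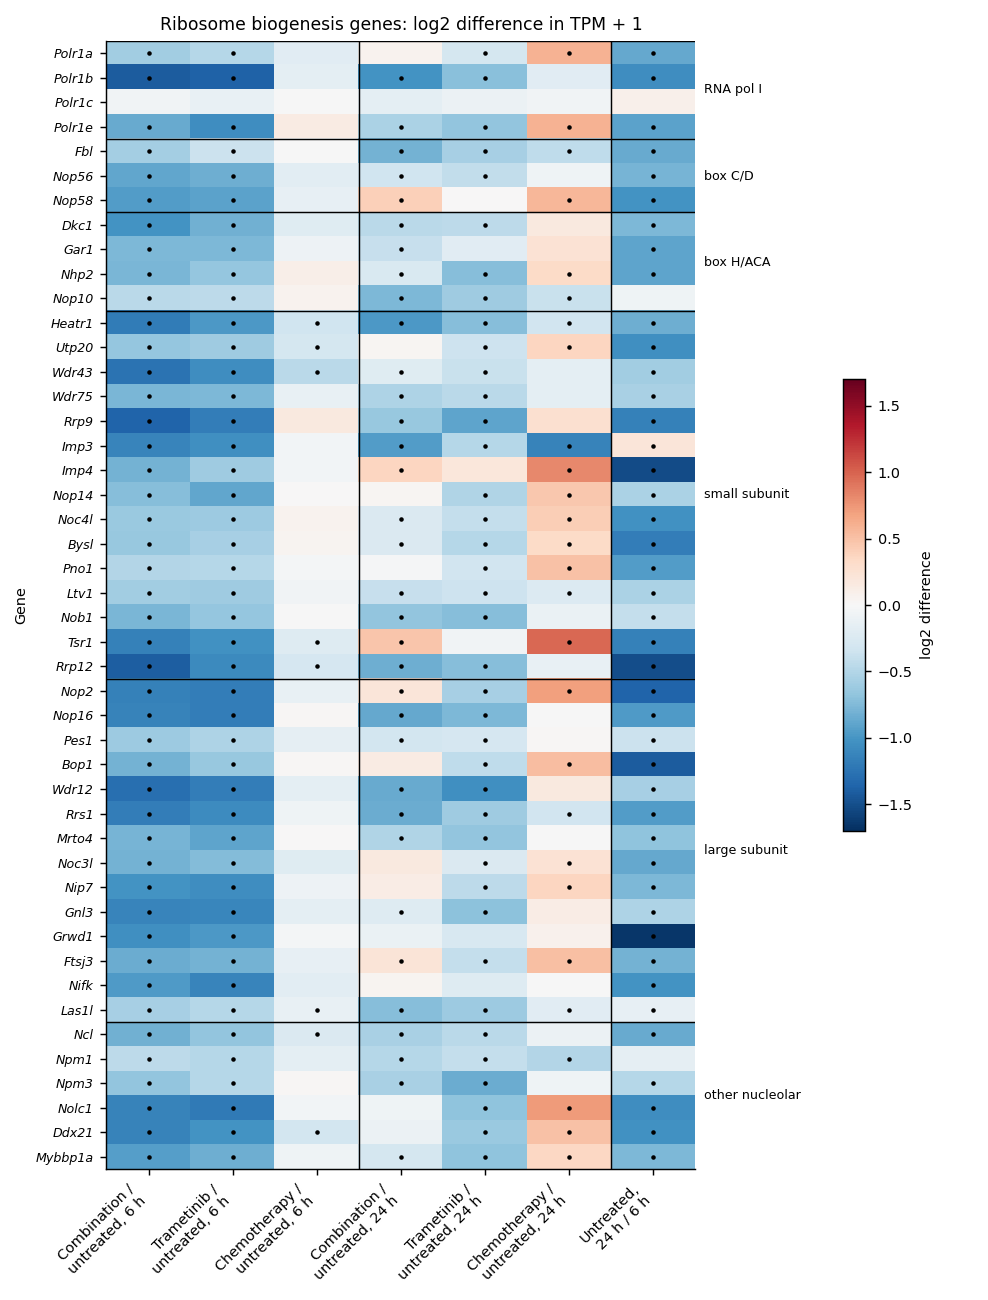
Log2 differences in TPM + 1 of the 46 ribosome biogenesis genes (rows, by role) in 7 comparisons (columns), blue for lower and red for higher in the group named first; a dot marks an adjusted p under 0.05. The first 2 columns are blue with a dot for 45 of the 46 genes, and the column of chemotherapy at 24 h holds 19 higher and 8 lower calls.

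Of the 4 RNA polymerase I genes, 3 were lower with trametinib at 6 h and Polr1c was not. Polr1b (chr2:129100995-129126594 in GRCm38), which encodes the second largest subunit, stood at 28.9, 28.2 and 26.7 TPM in combination libraries, at 26.1, 34.2 and 26.9 TPM in trametinib libraries and at 74.5, 77.8 and 77.6 TPM in untreated libraries at 6 h. No treated library came near an untreated one, and the log2 difference was -1.38 (SE 0.088, adjusted p = 1.88e-10) for trametinib and -1.42 (SE 0.088, adjusted p = 7.66e-11) for the combination, the largest fall of the 46 genes in both. Polr1e, which encodes a subunit that helps start transcription, stood at 38.9, 32.9 and 37.4 TPM in combination, 30.8, 31.8 and 32.6 TPM in trametinib and 64.7, 68.3 and 67.8 TPM in untreated libraries, so that the groups again lay apart, with log2 differences of -0.86 (SE 0.096, adjusted p = 2.4e-07) for the combination and -1.05 (SE 0.096, adjusted p = 2.35e-08) for trametinib. Polr1a, the gene of the catalytic subunit, averaged 51.3 ± 3.24 TPM in combination, 55.1 ± 4.2 TPM in trametinib and 77.5 ± 3.62 TPM in untreated cells (SD, n = 3 each).

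Polr1c encodes a subunit that RNA polymerase I shares with RNA polymerase III. Its levels at 6 h were 151, 132 and 149 TPM in combination, 149, 142 and 123 TPM in trametinib, 142, 170.2 and 137 TPM in chemotherapy and 151, 154 and 144 TPM in untreated libraries, which overlapped. At 24 h they were 145, 133 and 148 TPM in combination, 138, 150 and 156 TPM in trametinib, 141, 146 and 171 TPM in chemotherapy and 155, 164 and 156 TPM in untreated libraries. All 24 libraries thus lay between 123 and 171 TPM, and Polr1c was the single member with no call in any of the 18 comparisons made here. Its log2 difference was -0.12 (SE 0.087, adjusted p = 0.246) for trametinib and -0.061 (SE 0.087, adjusted p = 0.577) for the combination at 6 h. Under median-ratio rescaling it was called lower in combination against untreated cells at 24 h (log2 difference -0.28, adjusted p = 0.0163), against -0.16 (SE 0.087, adjusted p = 0.121) without rescaling.

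All 7 snoRNP genes were lower with trametinib and with the combination at 6 h. Nop58 and Nop56 encode the paired core proteins of box C/D snoRNPs. Nop58 stood at 176, 166 and 163 TPM in combination, 155, 192 and 172 TPM in trametinib and 319, 326 and 334 TPM in untreated libraries, and the log2 difference for trametinib was -0.91 (SE 0.07, adjusted p = 2.33e-09). Nop56 stood at 479, 434 and 417 TPM in combination, 426, 484 and 465 TPM in trametinib and 834, 831 and 782 TPM in untreated libraries, with a log2 difference of -0.83 (SE 0.065, adjusted p = 2.94e-09) for trametinib. In both genes every treated library was below every untreated one. Fbl, the methyltransferase of the same particle, fell less, with a log2 difference of -0.36 (SE 0.089, adjusted p = 0.00219) for trametinib and -0.58 (SE 0.089, adjusted p = 1.38e-05) for the combination.

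Among the box H/ACA genes, Dkc1 encodes the pseudouridine synthase. It stood at 98.9, 79.9 and 82.2 TPM in combination, 86.2, 123 and 92.4 TPM in trametinib and 157, 186 and 187 TPM in untreated libraries at 6 h, with the second trametinib library the highest of the treated ones, and the log2 difference for trametinib was -0.82 (SE 0.14, adjusted p = 3.94e-05). Gar1, a partner of Dkc1, stood at 223, 189 and 166 TPM in combination, 161, 223 and 191 TPM in trametinib and 314, 342 and 322 TPM in untreated libraries, and its log2 difference for trametinib was -0.77 (SE 0.12, adjusted p = 1.46e-05). Neither gene overlapped between treated and untreated libraries. Nop10, the smallest protein of the particle, changed least of the 4, with a log2 difference of -0.44 (SE 0.084, adjusted p = 0.000182). Nhp2 was called lower at -0.66, but most of its TPM lay in a transcript annotated as a retained intron (62.9% to 91.4% of its TPM by library), and on its coding transcripts alone the difference of -0.54 was not called (adjusted p = 0.216).

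All 15 genes of small subunit assembly were lower with trametinib and with the combination at 6 h, with medians of -0.77 and -0.78. Rrp9, a protein of the U3 snoRNP, stood at 35.6, 48.2 and 44.5 TPM in combination, 56.4, 47.2 and 42.9 TPM in trametinib and 107, 101 and 125 TPM in untreated libraries, and its log2 difference was -1.36 (SE 0.17, adjusted p = 1.04e-06) for the combination and -1.17 (SE 0.17, adjusted p = 8.74e-06) for trametinib. Rrp12, known from yeast for its part in export and maturation of both subunits, stood at 13, 13.2 and 13.5 TPM in combination, 15.8, 18.9 and 15.6 TPM in trametinib and 35.2, 36.7 and 37.8 TPM in untreated libraries. The 3 groups did not overlap in Rrp12, and the log2 difference was -1.40 (SE 0.099, adjusted p = 4.68e-10) for the combination and -1.08 (SE 0.099, adjusted p = 2.15e-08) for trametinib. The other 13 genes ranged from -1.06 (Wdr43) to -0.49 (Pno1, a protein that joins late small subunit precursors) with trametinib.

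All 14 genes of large subunit assembly were lower as well, with medians of -1.01 for trametinib and -0.99 for the combination. Wdr12, which with Pes1 and Bop1 forms the PeBoW complex of large subunit assembly, stood at 55.4, 65 and 47.7 TPM in combination, 55.1, 67.1 and 56.2 TPM in trametinib and 139, 145 and 125 TPM in untreated libraries, and its log2 difference was -1.28 (SE 0.11, adjusted p = 1.04e-08) for the combination and -1.18 (SE 0.11, adjusted p = 4.02e-08) for trametinib. The 2 partners fell less, with log2 differences for trametinib of -0.64 for Bop1 and -0.52 for Pes1. Nop16, a nucleolar protein of the precursor of the large subunit, stood at 92.6, 95.5 and 89.8 TPM in combination, 91.2, 96.7 and 82.5 TPM in trametinib and 201, 206 and 207 TPM in untreated libraries, and the log2 difference for trametinib was -1.17 (SE 0.061, adjusted p = 1.43e-11). In Wdr12 and Nop16 no treated library reached an untreated one. Nop2, an rRNA methyltransferase, fell by as much, with a log2 difference of -1.17 (SE 0.072, adjusted p = 1.05e-10) for trametinib.

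The 6 nucleolar chaperones and other nucleolar proteins were all lower. Nolc1, a nucleolar phosphoprotein that binds snoRNPs, stood at 90.5, 83.6 and 83.6 TPM in combination, 77.1, 91.2 and 77.2 TPM in trametinib and 189, 189 and 187 TPM in untreated libraries, and its log2 difference for trametinib was -1.20 (SE 0.068, adjusted p = 4.28e-11). Ddx21, an RNA helicase that acts with RNA polymerase I, stood at 99.3, 92.6 and 96.3 TPM in combination, 93.1, 119.9 and 102 TPM in trametinib and 205, 219 and 217 TPM in untreated libraries, with a log2 difference of -1.02 (SE 0.092, adjusted p = 1.98e-08) for trametinib. Treated and untreated libraries lay apart in both. Npm1, the most abundant of the 46 genes and a histone and ribosome chaperone, stood at 3273, 3131 and 3045 TPM in combination, 2923, 3242 and 3128 TPM in trametinib and 4342, 4381 and 4215 TPM in untreated libraries, a log2 difference of -0.48 (SE 0.069, adjusted p = 8.05e-06) for trametinib. Npm1 is known to have processed pseudogenes, so reads may be divided among copies and its level is uncertain.

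**Figure D2:**
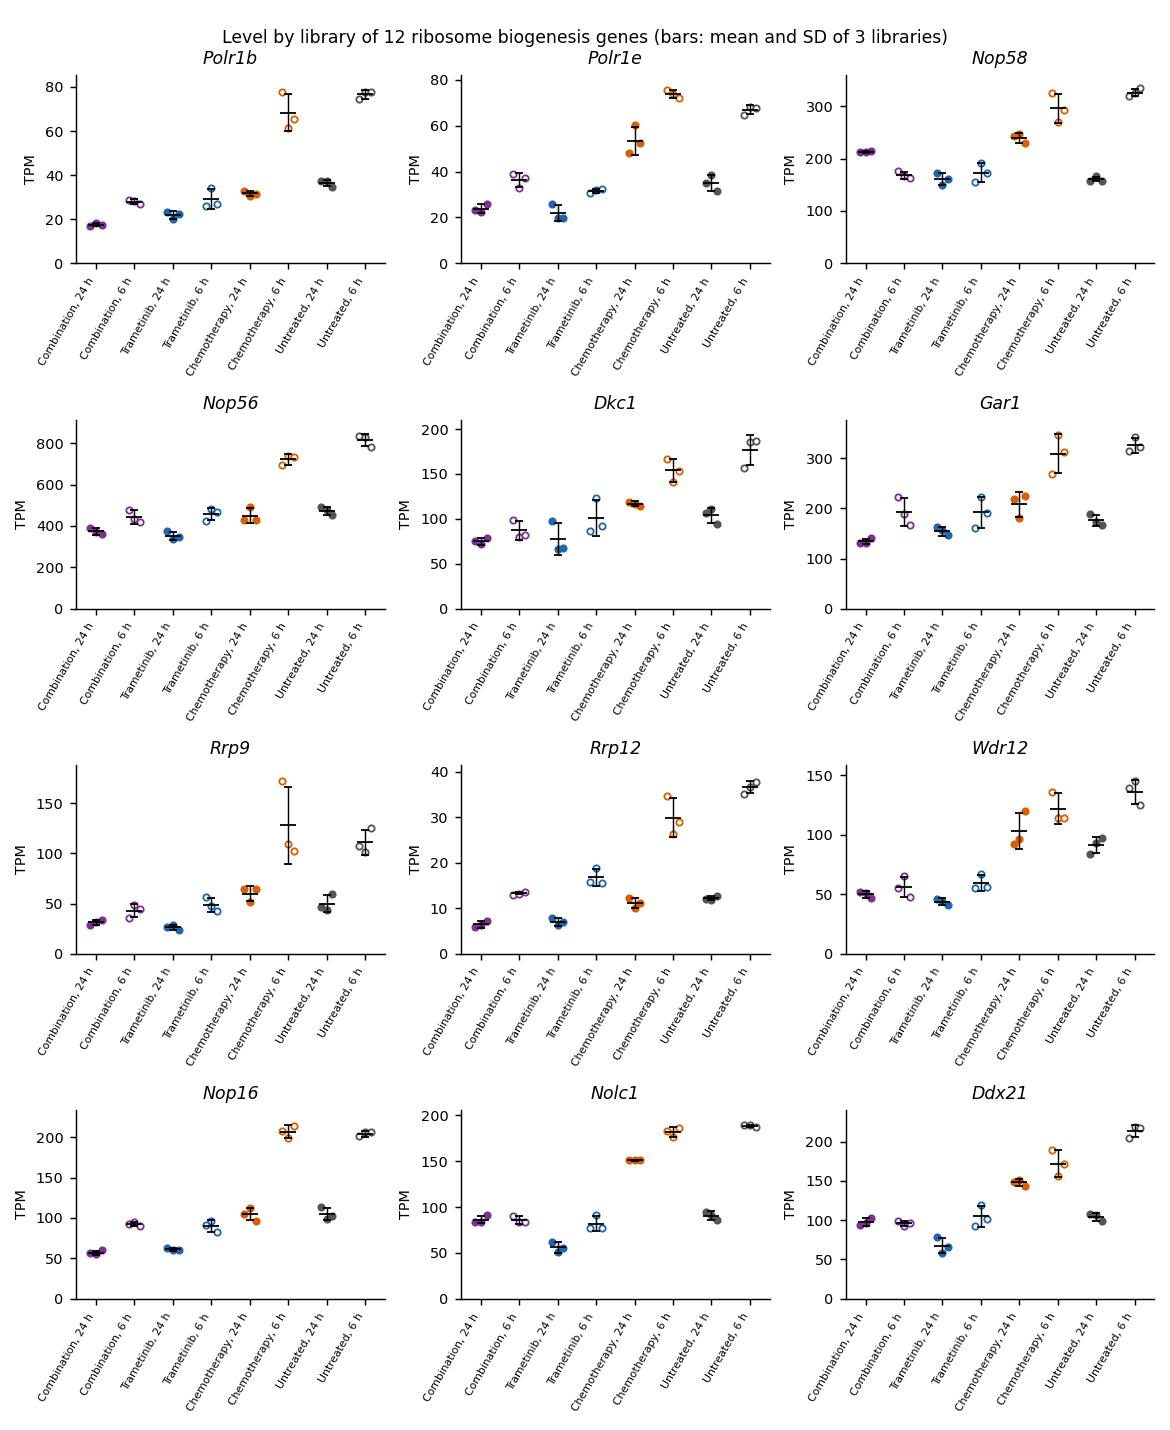
TPM (vertical axis, from 0) in each of the 24 libraries for 12 ribosome biogenesis genes, 2 of each role, by treatment and time (horizontal axis; filled points 24 h, open points 6 h), with the mean and SD of 3 libraries. In each panel the open points of combination and trametinib lie below those of untreated cells.

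Chemotherapy alone changed few of these genes at 6 h. Of the 46 genes, 8 were called lower and 0 higher in chemotherapy against untreated cells (13 lower and 0 higher at an unadjusted p under 0.05), with a median log2 difference of -0.081, while 13.5% of all genes were lower and 11.3% higher. The lower share among the 46 genes thus stood near that of all genes. Wdr43, a protein of the small subunit processome, stood at 121, 99.8 and 101 TPM in chemotherapy and 141, 151 and 149 TPM in untreated libraries and did not overlap, with a log2 difference of -0.46 (SE 0.081, adjusted p = 0.000382). Ncl, nucleolin, stood at 609.6, 547 and 585 TPM in chemotherapy and 669, 697 and 706 TPM in untreated libraries, again without overlap, with a log2 difference of -0.25 (SE 0.062, adjusted p = 0.00551).

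The other 6 lower genes had log2 differences of -0.34 to -0.13. Heatr1, a large protein of the small subunit processome, stood at 53.4, 41.1 and 46.6 TPM in chemotherapy and 56, 61.3 and 60.5 TPM in untreated libraries (log2 difference -0.34, SE 0.098, adjusted p = 0.0163). Ddx21 stood at 189.8, 156 and 171 TPM in chemotherapy and 205, 219 and 217 TPM in untreated libraries (log2 difference -0.31, SE 0.092, adjusted p = 0.0174). Utp20, another processome protein, stood at 45.5, 34.9 and 40.8 TPM in chemotherapy and 47, 51.5 and 50.6 TPM in untreated libraries (log2 difference -0.30, SE 0.10, adjusted p = 0.0365). In all 3 genes the chemotherapy libraries lay below the untreated ones, and the first chemotherapy library was the highest of its group. Rrp12 stood at 34.6, 26.2 and 29 TPM in chemotherapy and 35.2, 36.7 and 37.8 TPM in untreated libraries (log2 difference -0.29, SE 0.099, adjusted p = 0.0389). Tsr1, a protein that checks late small subunit precursors, stood at 123, 102 and 110.2 TPM in chemotherapy and 121, 134 and 135 TPM in untreated libraries and overlapped (log2 difference -0.22, SE 0.078, adjusted p = 0.0431). Las1l, a nuclease that cuts the rRNA spacer, stood at 43.6, 42.2 and 44.4 TPM in chemotherapy and 45.7, 49.1 and 48.1 TPM in untreated libraries (log2 difference -0.13, SE 0.047, adjusted p = 0.0494). The count of 8 became 2 without the second untreated, the third untreated or the second chemotherapy library, 4 without the third chemotherapy library, 7 without the first untreated and 11 without the first chemotherapy library.

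Adding chemotherapy to trametinib moved 1 of these genes past the test at 6 h. In combination against trametinib cells 1 of the 46 genes was lower and 0 higher (6 lower and 0 higher at an unadjusted p under 0.05), with a median of -0.064, against 6.53% lower and 12.3% higher among all genes. After rescaling, 9.98% of all genes were lower and 11.1% higher, and 5 of the 46 genes were lower. The called gene was Rrp12, at 13, 13.2 and 13.5 TPM in combination and 15.8, 18.9 and 15.6 TPM in trametinib libraries, without overlap (log2 difference -0.31, SE 0.099, adjusted p = 0.0321). Its call was lost without the second trametinib library (log2 difference -0.23) and without the first, the second or the third combination library (-0.30, -0.31 and -0.33). Against chemotherapy cells, 45 of the 46 genes were lower in combination cells (median -0.79, Rrp9 lowest at -1.53, with 16.4% of all genes lower and 39.7% higher) and 45 were lower in trametinib cells (median -0.67, Rrp9 lowest at -1.34, with 19.7% lower and 36.9% higher). After rescaling these shares of all genes were 26.6% lower and 27.9% higher for the combination, with a shift in the median of all genes of -0.128 and a median of the 46 genes of -0.93, and 28% lower and 28.7% higher for trametinib, with a shift of -0.103 and a median of -0.79. Polr1c was the exception in both, although rescaling made it lower in trametinib against chemotherapy cells. Rrp9 stood at 172, 109 and 102 TPM in chemotherapy libraries at 6 h, with the first library well above the rest, which bears on its rank. Besides Rrp9, the largest falls in combination against chemotherapy cells were those of Polr1b (-1.26), Nop16 (-1.15), Rrs1 (-1.11) and Wdr12 (-1.11), and in trametinib against chemotherapy cells those of Polr1b (-1.21), Polr1e (-1.19), Nop16 (-1.19) and Nolc1 (-1.15). Compared with chemotherapy and trametinib effects added on the log2 scale, the combination at 6 h gave 0 calls among the 46 genes with limma (1 higher and 1 lower at an unadjusted p under 0.05), against 0.0874% of all genes higher and 0.00795% lower. No other tool was run.

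By 24 h chemotherapy alone had moved genes of the list in both directions. In chemotherapy against untreated cells 19 of the 46 genes were higher and 8 lower, with a median log2 difference of 0.15, while 34.9% of all genes were higher and 24.3% lower, with a median of 0.057. The 46 genes thus had 41.3% higher and 17.4% lower, shares not far from those of all genes. After rescaling the counts were 19 higher and 13 lower, against 30.6% of all genes higher and 30.3% lower, and the median was 0.07. The 5 added genes were Polr1b, Rrp12, Wdr43, Wdr75 and Ncl. By role, 7 of 15 small subunit genes were higher and 3 lower, 5 of 14 large subunit genes were higher and 2 lower, 2 of 4 RNA polymerase I genes and 3 of 6 chaperones and other nucleolar genes were higher, with 0 and 1 lower, and the 2 snoRNP classes had 1 higher and 1 lower each.

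Tsr1 rose most, to 114, 116 and 113 TPM in chemotherapy libraries, against 60.6, 58.5 and 55.5 TPM in untreated libraries at 24 h, a log2 difference of 0.97 (SE 0.078, adjusted p = 3.08e-09). Imp4 stood at 77.4, 67.8 and 78.7 TPM in chemotherapy and 41.8, 37.7 and 46.6 TPM in untreated libraries (log2 difference 0.82, SE 0.1, adjusted p = 9.15e-07). Nolc1 stood at 151, 151 and 151 TPM in chemotherapy and 94.6, 91.7 and 85.7 TPM in untreated libraries (log2 difference 0.73, SE 0.068, adjusted p = 2.23e-08). In these 3 genes every chemotherapy library was above every untreated one, and so it was in Nop2, at 96, 90.1 and 89.7 TPM in chemotherapy and 57.6, 56.2 and 54.8 TPM in untreated libraries (log2 difference 0.70, SE 0.072, adjusted p = 8.28e-08). Among the polymerase genes, Polr1e stood at 47.9, 60.1 and 52.3 TPM in chemotherapy and 35.2, 38.6 and 31.7 TPM in untreated libraries (log2 difference 0.59, SE 0.096, adjusted p = 3.18e-05), and Polr1a had the same difference of 0.59. Polr1b did not follow them, at 33, 30.7 and 31.6 TPM in chemotherapy and 37.3, 37.3 and 34.8 TPM in untreated libraries (log2 difference -0.19, SE 0.088, adjusted p = 0.0664).

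Imp3 and Imp4 encode partners that bind Mpp10 within the U3 snoRNP, and at 24 h they moved apart under chemotherapy. Imp3 (chr9:56937475-56938398 in GRCm38, a single exon) stood at 26.6, 24.8 and 25 TPM in chemotherapy and 54.9, 56.5 and 60.3 TPM in untreated libraries, 0.445 times the untreated mean and with no overlap, a log2 difference of -1.14 (SE 0.054, adjusted p = 1.78e-12). At 6 h the same comparison gave 50.1, 46.1 and 47.1 TPM in chemotherapy and 50.7, 46 and 52.3 TPM in untreated libraries, which overlapped (log2 difference -0.053, SE 0.054, adjusted p = 0.524). Imp4 (chr1:34439851-34449356) held 33.8% to 66.4% of its TPM in coding transcripts, by library, and its rise was called on the coding transcripts alone too.

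The other 7 falls under chemotherapy at 24 h were smaller than that of Imp3. Npm1 stood at 2505, 3139 and 2668 TPM in chemotherapy and 3961, 4008 and 3712 TPM in untreated libraries, with the second chemotherapy library the highest of its group and still below the untreated ones (log2 difference -0.50, SE 0.069, adjusted p = 4.42e-06). Fbl stood at 154, 119 and 148 TPM in chemotherapy and 189, 176 and 200 TPM in untreated libraries (log2 difference -0.43, SE 0.089, adjusted p = 0.000355). Nop10 stood at 48, 43 and 50.7 TPM in chemotherapy and 58.4, 63.7 and 62.5 TPM in untreated libraries (log2 difference -0.38, SE 0.084, adjusted p = 0.000761). All of these lay apart, while within box C/D snoRNPs Fbl was lower, Nop58 higher (0.57) and Nop56 not called (-0.077). Heatr1 (-0.32), the large subunit assembly gene Rrs1 (-0.32), Ltv1 (-0.23), a factor of late small subunit maturation, and Las1l (-0.19) completed the lower calls. On coding transcripts alone the difference of Las1l turned to 0.10 and was not called (adjusted p = 0.0678), and the rise of Nhp2 was not called (adjusted p = 0.483).

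**Figure D3:**
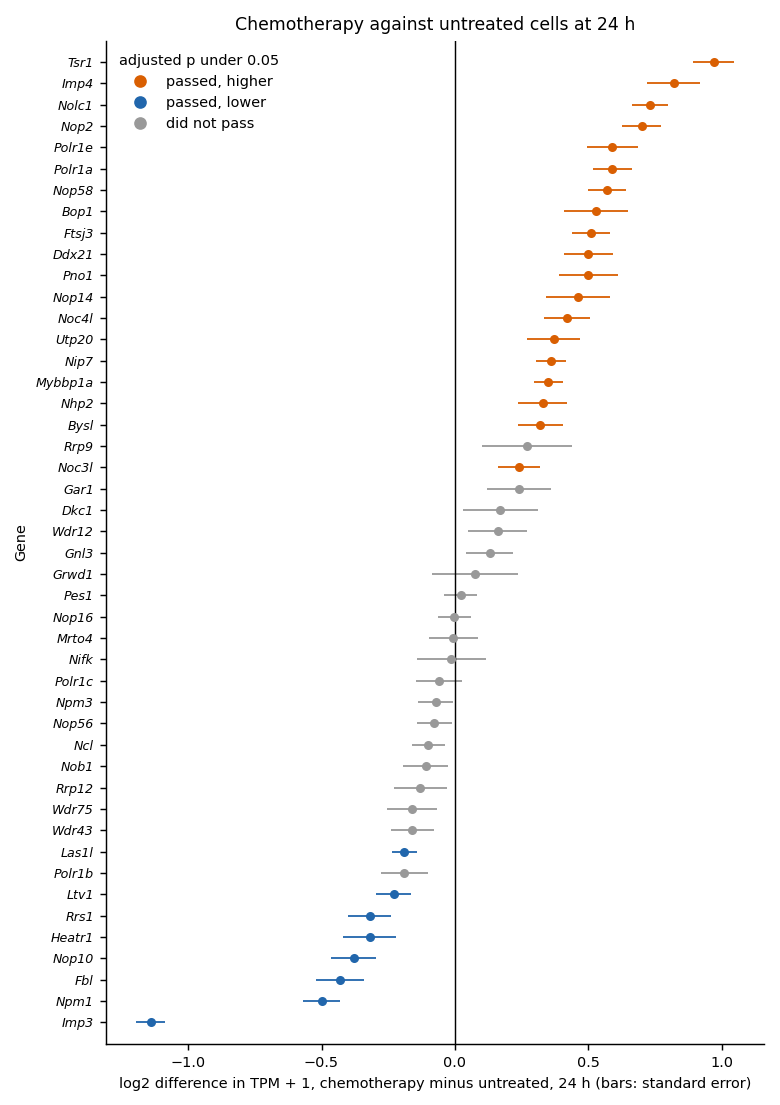
Difference on the log2(TPM + 1) scale (points, with bars for the standard error) of each of the 46 genes in chemotherapy minus untreated cells at 24 h (horizontal axis), sorted from high to low; colour shows whether the adjusted p was under 0.05. Tsr1 stands at 0.97 at the top, Imp3 at -1.14 stands apart at the bottom, and 19 genes did not pass.

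Trametinib still held most of the list down at 24 h. In trametinib against untreated cells 39 of the 46 genes were lower and 0 higher, with a median of -0.47, against 26.3% lower and 32.4% higher among all genes and a median of 0.036. Wdr12 stood at 46.2, 44.4 and 40.9 TPM in trametinib and 84.1, 93.3 and 97.3 TPM in untreated libraries and was the most lowered (log2 difference -1.04, SE 0.11, adjusted p = 1.65e-07). Rrp9 stood at 26.5, 28.5 and 23.4 TPM in trametinib and 46.5, 43.3 and 59.2 TPM in untreated libraries (log2 difference -0.89, SE 0.17, adjusted p = 0.000151). Npm3, a relative of Npm1, stood at 93.2, 97 and 90.3 TPM in trametinib and 161, 164 and 181 TPM in untreated libraries (log2 difference -0.84, SE 0.066, adjusted p = 1.64e-09). In all 3 the groups did not overlap, as in Nop16 (-0.76), Rrp12 (-0.73) and Nolc1 (-0.69).

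The 7 genes with no call at 24 h came from 5 of the 6 roles. Besides Polr1c they were Nop58, at 173, 149 and 161 TPM in trametinib and 158, 166 and 158 TPM in untreated libraries (log2 difference 0.004, SE 0.07, adjusted p = 0.967), and Gar1, at 162, 156 and 146 TPM in trametinib and 189, 173 and 166 TPM in untreated libraries (log2 difference -0.19, SE 0.12, adjusted p = 0.182). Tsr1 stood at 61.1, 51.8 and 54.7 TPM in trametinib and 60.6, 58.5 and 55.5 TPM in untreated libraries (log2 difference -0.06, SE 0.078, adjusted p = 0.529). Imp4 stood at 50.8, 48.1 and 45.4 TPM in trametinib and 41.8, 37.7 and 46.6 TPM in untreated libraries (log2 difference 0.19, SE 0.1, adjusted p = 0.104), and on coding transcripts alone it was called higher (0.19, adjusted p = 0.0336). Apart from Gar1, these genes overlapped between the groups. Grwd1, a histone-binding factor of large subunit assembly, stood at 19.9, 21.3 and 19.7 TPM in trametinib and 25.4, 20.7 and 28.1 TPM in untreated libraries (log2 difference -0.27, SE 0.16, adjusted p = 0.17), and Nifk, a partner of the proliferation marker Ki-67, at 91, 72.3 and 77.5 TPM in trametinib and 94.7, 107 and 79 TPM in untreated libraries (log2 difference -0.22, SE 0.13, adjusted p = 0.17). Dkc1 was called (-0.44, SE 0.14, adjusted p = 0.00905) although its libraries overlapped, and the call was lost without the second trametinib library (-0.34) or the third (-0.36).

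The combination at 24 h lowered most of the list and raised a few of its genes. Against untreated cells 29 of the 46 genes were lower and 5 higher, with a median of -0.30, against 23.8% lower and 39.6% higher among all genes. After rescaling, which shifted the median of all genes by -0.111, 32% of all genes were lower and 32.6% higher, and the counts of the 46 genes were 32 lower and 3 higher with a median of -0.43. The largest falls were those of Polr1b, at 16.9, 18.2 and 17.4 TPM in combination and 37.3, 37.3 and 34.8 TPM in untreated libraries (log2 difference -1.02, SE 0.088, adjusted p = 5.28e-09), Heatr1, at 15.2, 16.1 and 17.5 TPM in combination and 34.7, 32.6 and 31.6 TPM in untreated libraries (log2 difference -0.98, SE 0.098, adjusted p = 4.19e-08), and Imp3, at 30.6, 28 and 28.7 TPM in combination and 54.9, 56.5 and 60.3 TPM in untreated libraries (log2 difference -0.95, SE 0.054, adjusted p = 1.27e-11). None of these overlapped. Nop16 (-0.87) and Wdr12 (-0.86) came next.

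The 5 genes higher in combination than in untreated cells at 24 h were all higher with chemotherapy at that time too, a comparison that shares the untreated libraries. Tsr1 stood at 80.8, 80 and 82.4 TPM in combination and 60.6, 58.5 and 55.5 TPM in untreated libraries (log2 difference 0.47, SE 0.078, adjusted p = 2.68e-05). Nop58 stood at 212, 213 and 215 TPM in combination and 158, 166 and 158 TPM in untreated libraries (log2 difference 0.41, SE 0.07, adjusted p = 4.2e-05). Imp4 stood at 47.9, 57.2 and 58.8 TPM in combination and 41.8, 37.7 and 46.6 TPM in untreated libraries (log2 difference 0.37, SE 0.1, adjusted p = 0.00311). The libraries of all 3 lay apart. Ftsj3, an rRNA methyltransferase, had a log2 difference of 0.22 (SE 0.071, adjusted p = 0.0126) and Nop2 one of 0.20 (SE 0.072, adjusted p = 0.02), and after rescaling neither was called (0.09, adjusted p = 0.237, and 0.08, adjusted p = 0.334). The call of Ftsj3 was lost without the third untreated library (0.17) and that of Nop2 without the third untreated or the third combination library (lowest value 0.16).

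**Figure D4:**
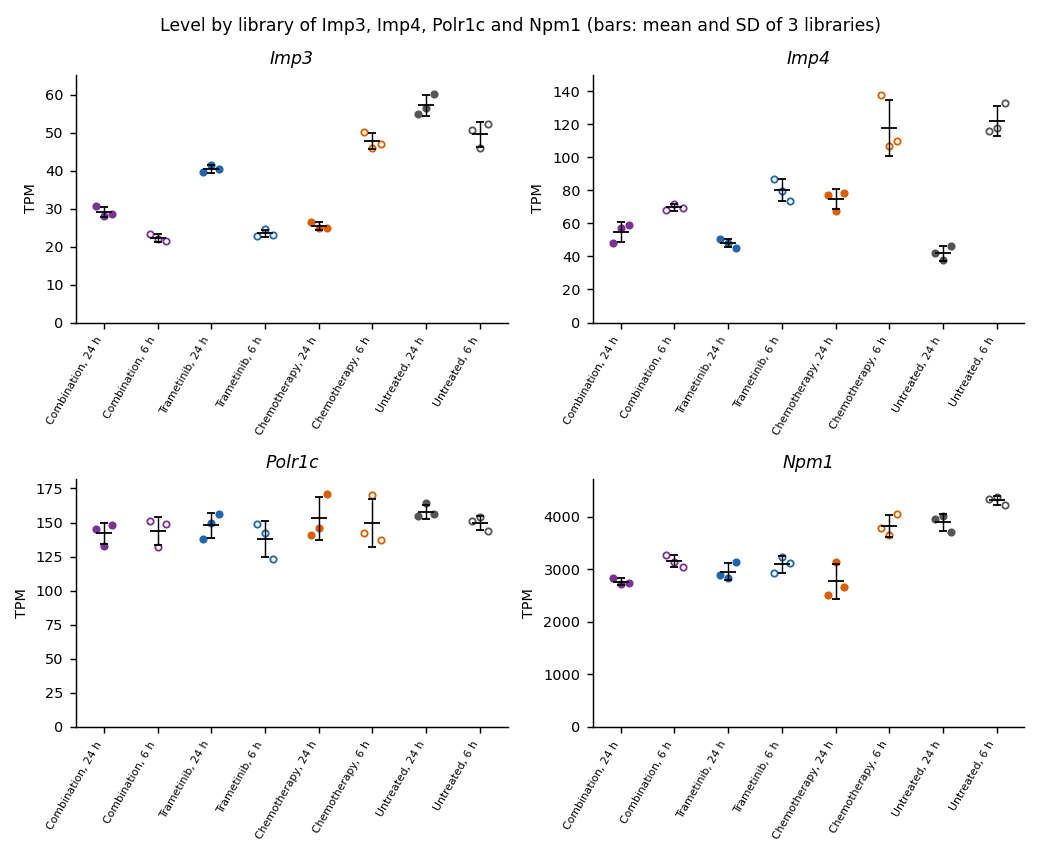
TPM (vertical axis, from 0) in each of the 24 libraries for Imp3, Imp4, Polr1c and Npm1, by treatment and time (horizontal axis; filled points 24 h, open points 6 h), with the mean and SD of 3 libraries. Imp3 at 24 h is lower in chemotherapy than in untreated libraries while Imp4 is higher, and Polr1c stays between 123 and 171 TPM in every library.

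Among the 4 groups at 24 h, chemotherapy held the highest mean for 26 of the 46 genes and trametinib the lowest for 27. In combination against trametinib cells 18 of the 46 genes were higher and 5 lower (median 0.17; 31.4% higher and 18.0% lower among all genes, and 26.1% and 25% after rescaling, when the counts of the 46 genes were 16 higher and 8 lower). The largest rises were those of Nop2 (0.77), Nolc1 (0.62), Ftsj3 (0.62), Bop1 (0.57) and Nip7 (0.56), a factor of large subunit assembly. With 1 library left out, 18 to 21 of the 23 calls were kept, and some of the higher calls were among those lost. Imp3 (-0.47), Polr1b (-0.31), Rrs1 (-0.24), Heatr1 (-0.24) and Fbl (-0.23) were lower. Of these, Polr1b was not called on coding transcripts alone (-0.16), and single libraries decided 3 calls: Rrs1 was lost without the first trametinib, first combination or second combination library (-0.30 to -0.20 over all 6 omissions), Heatr1 without the first or the third trametinib or the first or second combination library (-0.32 to -0.16), and Fbl without the first or second trametinib or the second or the third combination library (-0.27 to -0.20).

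In combination against chemotherapy cells at 24 h, 37 of the 46 genes were lower and 1 higher (median -0.49; 23.2% lower and 30.3% higher among all genes). Polr1e (-1.13), Wdr12 (-1.02), Rrp9 (-0.92), Nop16 (-0.86) and Polr1b (-0.83) fell most, and Imp3 (0.18, SE 0.054, adjusted p = 0.00789) was the gene that was higher, a call that rescaling removed. In trametinib against chemotherapy cells 39 of the 46 genes were lower and 1 higher (median -0.62; 35.5% lower and 31.2% higher among all genes). Nolc1 (-1.42), Nop2 (-1.27), Polr1e (-1.26), Wdr12 (-1.21) and Rrp9 (-1.16) fell most, and Imp3 (0.65, SE 0.054, adjusted p = 2.69e-09) was again the one that was higher.

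The combination departed from the added log2 effects of chemotherapy and trametinib in 8 of the 46 genes at 24 h, 5 above the sum and 3 below it, against 16.2% of all genes above and 15.6% below. Imp3 lay 0.67 above (SE 0.077, adjusted p = 2.4e-06), with Npm1 at 0.40 and Npm3 at 0.36. Imp3 averaged 29.1 TPM in combination, 25.5 TPM in chemotherapy, 40.5 TPM in trametinib and 57.2 TPM in untreated cells. For Imp3 and Npm1 each single treatment gave a fall, so above the sum means a smaller fall than the added ones, not a rise. Imp4 lay below at -0.64 (SE 0.14, adjusted p = 0.00181), with Polr1e at -0.46 and Tsr1 at -0.43. Gnl3, nucleostemin, was called above the sum at 0.35 and Wdr43 at 0.33, and each call was lost under 8 of the 12 single-library omissions (0.31 to 0.43 and 0.29 to 0.39). On coding transcripts alone the count was 15, 9 above and 6 below.

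The treatment effects themselves differed between 24 h and 6 h. For trametinib 23 of the 46 genes had a higher effect at 24 h than at 6 h and 1 a lower one (median 0.33; 15.9% and 22.3% of all genes), led by Tsr1 (0.97, SE 0.11, adjusted p = 1.42e-06), Nop58 (0.92), Nifk (0.90), Imp4 (0.80) and Grwd1 (0.71), with Npm3 as the lower one (-0.36). A higher effect means here a smaller fall at 24 h or none, and the 5 leading genes were not called in trametinib against untreated cells at 24 h. The call of Grwd1 was lost without the third trametinib library at 6 h or the second untreated library at 24 h (lowest value 0.58). For chemotherapy 18 effects were higher at 24 h and 4 lower (median 0.26; 28.3% and 16.7% of all genes, 23.9% and 22.7% after rescaling), led by Tsr1 (1.19, SE 0.11, adjusted p = 9.63e-08), Imp4 (0.87), Nop2 (0.82), Ddx21 (0.81) and Polr1a (0.78), with Imp3 (-1.08, SE 0.077, adjusted p = 2.88e-09), Nop10 (-0.43), Fbl (-0.42) and Npm1 (-0.32) lower. For the combination 32 were higher and 2 lower (median 0.50; 25.3% and 24.3% of all genes), led by Tsr1 (1.62, SE 0.11, adjusted p = 1.65e-09), Nop58 (1.36), Nop2 (1.35), Imp4 (1.17) and Nip7 (1.14). The lower ones were Nop10 (-0.30) and Las1l (-0.17), each lost under 8 of the 12 omissions (-0.40 to -0.24 and -0.19 to -0.14), and Las1l turned to 0.018 on coding transcripts alone.

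Each of these differences is measured against untreated cells, whose own levels were much lower at 24 h than at 6 h. In untreated cells at 24 h against 6 h 42 of the 46 genes were lower and 1 higher, with a median of -0.87, while 31.4% of all genes were lower and 29.4% higher, with a median of -0.014. Grwd1 fell most, to 25.4, 20.7 and 28.1 TPM in untreated libraries at 24 h, against 78.8, 75 and 84.7 TPM at 6 h (log2 difference -1.65, SE 0.16, adjusted p = 4.92e-08). Imp4 stood at 41.8, 37.7 and 46.6 TPM at 24 h and 116, 118 and 133 TPM at 6 h (log2 difference -1.52, SE 0.1, adjusted p = 2.53e-10). Rrp12 stood at 12.1, 11.8 and 12.7 TPM at 24 h and 35.2, 36.7 and 37.8 TPM at 6 h (log2 difference -1.51, SE 0.099, adjusted p = 2.29e-10). The 2 times did not overlap in any of these, and Bop1 (-1.42) and Nop2 (-1.36) came next. Imp3, the exception, stood at 54.9, 56.5 and 60.3 TPM at 24 h and 50.7, 46 and 52.3 TPM at 6 h and rose by 0.20 (SE 0.054, adjusted p = 0.00326), also without overlap. Polr1c (0.081), Npm1 (-0.15) and Nop10 (-0.068) were not called. Time in culture, and any other difference between the sampling times, cannot be told apart in these libraries.

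The level of most of the genes was thus highest in untreated cells at 6 h, which held the highest group mean of the 8 groups for 33 of the 46 genes, while trametinib at 24 h held the lowest for 26 and the combination at 24 h for 15. The summed TPM of the 46 genes was 7285 ± 303 in combination, 7445 ± 458 in trametinib, 10828 ± 377 in chemotherapy and 11848 ± 132 in untreated cells at 6 h (SD, n = 3 each). At 24 h it was 6285 ± 80 in combination, 6091 ± 231 in trametinib, 7550 ± 343 in chemotherapy and 8242 ± 230 in untreated cells (SD, n = 3 each). Npm1 makes up a large part of these sums, and without it chemotherapy cells at 24 h stood above untreated ones, at 4780 ± 19 TPM against 4348 ± 73 TPM (SD, n = 3 each). A sum of TPM is a share of each library's RNA, so a smaller sum and a larger rest of the transcriptome cannot be told apart.

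Most other genes of the pathway were also lower after trametinib, while at 6 h 10 of 78 ribosomal protein genes were (12.8%, against 18.9% of all genes). Of 119 other ribosome biogenesis genes tested, of 122 listed, 99 were lower and 2 higher in trametinib against untreated cells at 6 h, with a median of -0.61. These were 83.2% lower and 1.68% higher, against 18.9% and 35.9% of all genes. Mdn1, an ATPase that remodels large subunit precursors, averaged 16 ± 4.49 TPM in trametinib and 42.1 ± 3.61 TPM in untreated cells (SD, n = 3 each), a log2 difference of -1.37. Naf1 (-1.23), which helps assemble box H/ACA snoRNPs, and Rrp1b (-1.15), a nucleolar protein, followed, and the 2 higher ones were Pih1d1 (1.20), a cochaperone of snoRNP assembly, and Rrp36 (0.31). After rescaling 104 were lower and 0 higher, and Pih1d1 (1.10, adjusted p = 0.0686) and Rrp36 (0.20, adjusted p = 0.0811) were not called. At 24 h 79 were lower and 9 higher with trametinib (median -0.31), with Ruvbl2 (-1.08), Lyar (-0.97) and Rrp1b (-0.95) lowest and Cd3eap (0.46), an RNA polymerase I subunit, Ubtf (0.33), the rRNA gene activator UBF, and Ddx55 (0.18, adjusted p = 0.0489) highest. Of the 119, 66.4% were thus lower at 24 h and 7.56% higher, against 26.3% and 32.4% of all genes. After rescaling 84 were lower and 4 higher, and Ddx55 (0.14, adjusted p = 0.0633) was not called.

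With chemotherapy at 24 h 56 of the 119 were higher and 12 lower (47.1% and 10.1%, median 0.14), against 34.9% and 24.3% of all genes. After rescaling 42 were higher and 24 lower, against 30.6% and 30.3% of all genes. In combination against untreated cells 97 were lower and 4 higher at 6 h (107 and 1 after rescaling), and 49 were lower and 26 higher at 24 h (69 and 21 after rescaling). The shares at 6 h were 81.5% lower and 3.36% higher, against 19.8% and 38.6% of all genes (29% and 30.5% after rescaling). At 24 h they were 41.2% and 21.8%, against 23.8% and 39.6% of all genes (32% and 32.6% after rescaling). In untreated cells at 24 h against 6 h 104 were lower and 3 higher (median -0.63), 87.4% and 2.52% against 31.4% and 29.4% of all genes. Among 78 tested genes of cytosolic ribosomal proteins, the structural proteins of the ribosome itself, 10 were lower and 0 higher with trametinib at 6 h (median -0.06; 18 lower after rescaling, median -0.16) and 32 were lower and 1 higher at 24 h (median -0.23). In combination against untreated cells 5 were lower and 0 higher at 6 h (median -0.14; 23 lower after rescaling, median -0.27), and 48 were lower and 1 higher at 24 h (median -0.41; 60 lower after rescaling), where the 46 genes had a median of -0.30. With chemotherapy at 24 h 27 were lower and 2 higher (median -0.21), where the 46 biogenesis genes had a median of 0.15. In untreated cells at 24 h against 6 h 32 were higher and 2 lower (median 0.19), where the 46 genes had a median of -0.87. Of the 78, 12.8% were lower with trametinib at 6 h and 41% at 24 h, against 18.9% and 26.3% of all genes. With the combination 6.41% and 61.5% were lower, against 19.8% and 23.8%. With chemotherapy at 24 h 34.6% were lower, against 24.3%, and in untreated cells at 24 h against 6 h 41% were higher, against 29.4%. After rescaling 26.2% of all genes were lower with trametinib at 6 h, and 29% and 32% with the combination at 6 h and 24 h. The other genes and the ribosomal protein genes are described by count, share and median only, and no test of the difference between lists was made.

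**Figure D5:**
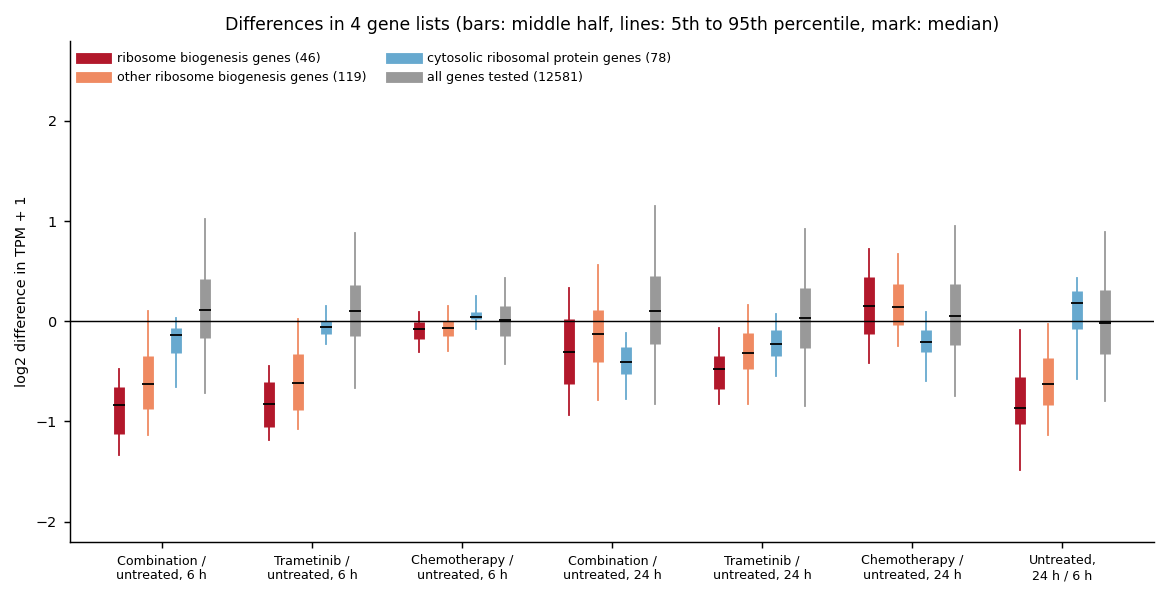
Log2 differences in TPM + 1 (vertical axis) of the 46 ribosome biogenesis genes, 119 other ribosome biogenesis genes, 78 cytosolic ribosomal protein genes and all 12581 genes tested, in 7 comparisons (horizontal axis); thick bars span the lower to the upper quartile, thin lines the 5th to 95th percentile, and marks show the median. The 46 genes have medians of -0.83 and -0.84 with trametinib and with the combination at 6 h and of 0.15 with chemotherapy at 24 h.

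Levels of Myc, the transcription factor named above, were read beside these values and chosen with earlier results known. Myc averaged 89.8 ± 4.53 TPM in combination, 106 ± 15.7 TPM in trametinib, 224 ± 28.8 TPM in chemotherapy and 269 ± 12 TPM in untreated cells at 6 h (SD, n = 3 each). At 24 h it averaged 240.2 ± 30.7 TPM in combination, 99.5 ± 3.84 TPM in trametinib, 326 ± 30.9 TPM in chemotherapy and 236 ± 26.6 TPM in untreated cells (SD, n = 3 each). Its log2 difference from untreated cells was -1.34 with trametinib at 6 h (adjusted p = 7.08e-09), 0.47 with chemotherapy at 24 h (adjusted p = 0.00136) and 0.024 with the combination at 24 h (adjusted p = 0.867). In untreated cells at 24 h against 6 h it was -0.20 (adjusted p = 0.139). The part of Myc in the levels of the 46 genes was not tested.

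Several of these genes carried much of their RNA in transcripts annotated as not coding for the full protein, which bears on what a gene total means. Nop16 held 59.9% to 68.7% of its TPM, by library, in a transcript annotated for nonsense-mediated decay, the pathway that degrades RNA with early stop codons. Imp4 held 33.6% to 47.6% in such transcripts, and Gar1 held 38.2% to 56.3% and Nop56 23.9% to 44.3% in transcripts with a retained intron. With coding transcripts alone, 44 of the 45 genes lower with trametinib at 6 h and all 45 lower with the combination were called again. These shares rest on the assignment of reads to similar transcripts of one gene, whose error is not given in the table.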

How the data were processed

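Poly(A) RNA of 24 LLC1 libraries was prepared with a TruSeq Stranded mRNA kit, per the labels' protocols. The authors deposited TPM per transcript, quantified with kallisto 0.45 after bcl2fastq 2.17.1.14, with GRCm38 as the build, per the submitters' processing notes. TPM carries no depth, so counts tests could not be used, and the precision of single values rests on the 3 libraries per group. Of 82934 transcripts, 79662 matched the GENCODE M21 annotation and were summed by gene, and the 3272 others held 4.451% to 5.977% of each library's TPM and were left out.

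Log2(TPM + 1) was fitted with limma 3.58.1 in R 4.3.3 over 8 group means and all 24 libraries (16 residual degrees of freedom, variance trend), for genes that reached 1 TPM in 3 or more libraries. The 18 comparisons were two-sided, with Benjamini-Hochberg adjustment over 12581 genes and a threshold of 0.05. A fold change on this scale understates the change of low genes. The limma fit was run on simulated data for trametinib against untreated cells at 6 h only. Far fewer genes changed there than were called in the data, and no result here rests on it. The series' own threshold, Bonferroni under 0.10, was tried as an alternative, as were median-ratio rescaling, a pseudocount of 0.1, no filter on low values, a mean of at least 5 TPM, coding transcripts alone, no variance trend, only the groups compared, a replicate block and each library left out.

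The genes and lists were chosen with earlier results of these data known. Values per library are given for the 2 genes per role with the largest absolute difference in trametinib against untreated cells at 6 h and for genes whose call departs from most of their role, and otherwise for up to 5 called genes per direction with the largest difference. Of the other ribosome biogenesis genes, the 3 largest called differences per direction are named in each trametinib comparison with untreated cells. Further genes named with a value were chosen after their values were seen. The level of 1 marker gene is not reported here.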

Additional observations from a re-analysis of the deposited data

Results flagged for a closer look

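At 24 h the combination differed from the added log2 effects of chemotherapy and trametinib, by limma's test of that difference, in 8 of the 46 genes, 10.9% above the sum and 6.52% below it, against 16.2% above and 15.6% below among all genes tested. The differences were 0.67 for Imp3, 0.40 for Npm1, 0.36 for Npm3, 0.35 for Gnl3 and 0.33 for Wdr43 above the sum, and -0.64 for Imp4, -0.46 for Polr1e and -0.43 for Tsr1 below it. At 6 h this test called 0 of the 46 genes. Imp3 and Npm1 were lower in combination than in untreated cells at 24 h (means 29.1 against 57.2 TPM and 2765 against 3894 TPM). Above the sum is for them a smaller fall than the added falls.

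The effect of a treatment relative to untreated cells differed between 24 h and 6 h, again by a test of the difference itself, in 34 genes for the combination, 24 for trametinib and 22 for chemotherapy. Among the 46 genes 69.6% had a higher and 4.35% a lower effect at 24 h for the combination, against 25.3% and 24.3% of all genes. For trametinib the shares were 50% and 2.17%, against 15.9% and 22.3%, and for chemotherapy 39.1% and 8.7%, against 28.3% and 16.7%. For the combination the log2 effect at 24 h minus that at 6 h was 1.62 for Tsr1, 1.36 for Nop58, 1.35 for Nop2, 1.17 for Imp4 and 1.14 for Nip7, and -0.30 for Nop10 and -0.17 for Las1l. For trametinib it was 0.97 for Tsr1, 0.92 for Nop58, 0.90 for Nifk, 0.80 for Imp4 and 0.71 for Grwd1, and -0.36 for Npm3. For chemotherapy it was 1.19 for Tsr1, 0.87 for Imp4, 0.82 for Nop2, 0.81 for Ddx21 and 0.78 for Polr1a, and -1.08 for Imp3, -0.43 for Nop10, -0.42 for Fbl and -0.32 for Npm1. All 3 share the untreated libraries, whose own median difference for the 46 genes was -0.87 at 24 h against 6 h.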

How the results depend on the processing

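The counts of called genes, out of 46, were 45 under every omission of 1 library for trametinib, the combination, and the combination against chemotherapy at 6 h, and 44 to 45 for trametinib against chemotherapy at 6 h. With 1 library left out, the counts ranged from 2 to 11 for chemotherapy at 6 h, 0 to 3 for the combination against trametinib at 6 h and 0 to 0 beyond the sum at 6 h. At 24 h they ranged from 27 to 28 for chemotherapy, 37 to 40 for trametinib, 29 to 32 for the combination, 37 to 39 for the combination against chemotherapy, 18 to 24 for the combination against trametinib, 39 to 42 for trametinib against chemotherapy and 6 to 10 beyond the sum. For the effects at 24 h minus 6 h they ranged from 19 to 25 for chemotherapy, 19 to 29 for trametinib and 30 to 34 for the combination, and for untreated cells at 24 h against 6 h from 42 to 43. Under Bonferroni at 0.10 the counts were 0 for chemotherapy and 0 for the combination against trametinib at 6 h, and at 24 h 12 for chemotherapy, 23 for trametinib, 14 for the combination, 20 for the combination against chemotherapy, 7 for the combination against trametinib and 1 beyond the sum. For the effects at 24 h minus 6 h they were 9 for chemotherapy, 4 for trametinib and 13 for the combination. Without a filter on low values, and with only the groups compared, chemotherapy at 6 h gave 4 and the combination against trametinib at 6 h gave 0. Rescaling gave 5 for the combination against trametinib at 6 h, and coding transcripts alone gave 15 beyond the sum at 24 h. The cause of these moves was not tested, apart from the stricter threshold of Bonferroni. Among the values of the 46 genes over all comparisons and alternatives, 13208 stayed on their side of the threshold, 454 dropped below it, 134 passed it and 4 reversed. The 4 were all of Las1l on coding transcripts alone, at 0.099 for chemotherapy at 24 h, -0.17 beyond the sum at 24 h, and 0.21 for chemotherapy and 0.018 for the combination in effects at 24 h minus 6 h. Whether replicate numbers pair the libraries could not be decided. Deviations of same-numbered libraries correlated at -0.358 to 0.437, with 23 of 84 above 0.1. Between combination at 6 h and trametinib at 24 h all same-number values (0.165, 0.308 and 0.233) were above every other-number value (at most 0.00369). Between untreated at 6 h and trametinib at 24 h all of them (-0.105, -0.182 and -0.148) were below every other-number value (at least 0.00148). With a replicate block the counts were 6 for chemotherapy, 45 for trametinib, 45 for the combination and 1 for the combination against trametinib at 6 h, and 27, 39, 34 and 22 for the same comparisons at 24 h. The depth behind the TPM values is unknown, so no limit from counting could be set.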
